A study of Drosophila melanogaster with 13 samples.

Results

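The assimilated and the nonassimilated pool of Mix experiment 1 were compared directly, allele frequency against allele frequency. They are 2 of the 13 pools sequenced in the series. The members of the comparison are the variant sites listed for both pools: 1231203 sites were listed for assimilated flies and 1203242 for nonassimilated flies, and 1109083 positions occurred in both lists. At 21 of these a pool had no reads, which left 1109062 sites to test, 1089128 of them on the 5 large chromosome arms. Sites listed for 1 pool only were counted apart and not tested.

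Mix is a wild type outbred stock, made by crossing the DGRP inbred lines D208, D437, D820 and D907 into a single population. Its ancestral flies are called P0. Assimilated flies descend from P0 through cycles of pupal heat shock with selection for ectopic veins (EV), followed by selection of EV in progeny that received no heat shock. Nonassimilated flies descend from the unselected, unheated control line and were selected for EV without any heat shock. All pools of the experiment go back to the same founders and were raised on the same medium, and each pool held genomic DNA of 100 whole adult females from 1 population. The number of generations behind each sequenced pool is not given by the labels. Since each treatment is represented by 1 population, an effect of the treatment and a difference between any pair of separately kept populations cannot be told apart.

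Genetic assimilation, described by Waddington, was named for selection experiments in which flies showing a heat-induced wing phenotype were bred until their unheated offspring showed it too. In the wing disc and pupal wing, veins form where EGFR signalling is active and are kept narrow by Notch, while BMP and Hedgehog signals position and maintain them. Hippo signalling limits growth of the same tissue, and the chaperone Hsp90 is known in flies as a buffer of hidden genetic variation.

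Reads of the alternative allele were counted at each site, and its frequency is the share of these reads among all reads of the site. The median depth over tested sites was 85 reads in the assimilated, 86 in the nonassimilated and 84 in the P0 pool. A site was called different when a two-sided Fisher's exact test on the reads of both pools gave a p-value below 1e-05 after Bonferroni's correction over all tested sites. At the median depths an allele absent from the nonassimilated pool had to reach 37.6% in the assimilated pool to be called, and an allele at 50% had to reach 95.3%. The test compares pools, covers counting error of the reads only, and treats linked neighbours as separate sites, so counts of sites are not counts of loci. P0 and the control pool of the same experiment are given as background.

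The largest differences were complete: the reads of one pool carried only the reference allele and those of the other only the alternative allele. The following reference sequences (dm6, plus strand, from RefSeq) surround the most divergent called site of several 100-kb windows described below, with the variant position in capitals. They are shown because the differences between the pools are read from such positions. The differences at the Ten-m, aux and intergenic sites were not complete. The deposited tables do not name the alternative base.
Dhc16F coding sequence, chrX:18069888-18069916: aatctgaaggccctGttccgacccatctc
mal coding sequence, chrX:20432378-20432406: gacacagcaaaatgCgtaagcaaggtgtg
dpy coding sequence, chr2L:4516104-4516132: cactgcgagttctgCccacatactcctgg
CG11030 intron, chr2L:5750346-5750374: cctttcattgtatgTacgctggagtggag
Ten-m intron, chr3L:22345159-22345187: aagccaaagctgccCaactatttatgtcg
intergenic site on 3L, chr3L:13183543-13183571: agatttgctaacagAtaactgcaactagt
aux intron, chr3R:4220117-4220145: ggtcatctgtaactAtccgtattcgccag
pug coding sequence, chr3R:10701791-10701819: atcccgatacccttAccgctgacgaatac

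At the dpy site the alternative allele stood at 21.7% in P0, 20.9% in control, 100% in assimilated (123 reads) and 0% in nonassimilated flies (123 reads), with an adjusted Fisher p of 3.86e-67. The Dhc16F site ran the other way, with 50.5% in P0, 53.8% in control, 0% in assimilated (95 reads) and 100% in nonassimilated flies (141 reads), and an adjusted p of 1.73e-62 by Fisher's exact test. The site in pug, a gene of folate metabolism, went from 52.4% in P0 to 0% in assimilated and 100% in nonassimilated flies (Fisher's exact test, adjusted p = 3.95e-63). At the mal site the allele was nearly fixed in P0 (90.9%) and in assimilated flies (100%), but had 0 of 105 reads in nonassimilated flies. At the intergenic 3L site nonassimilated flies were fixed at 100% and assimilated flies kept both alleles, with 17.3% against 66.3% in P0. So a call could come from either pool or from both, and the sections below separate these cases.

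Of the 1109062 tested sites, 265107 were called different, which is 23.9% of them. On the arms the share was 36.8% on X, 32.1% on 2R, 28.4% on 2L, 15.7% on 3L and 15.5% on 3R. The 95% Wilson intervals were 36.5% to 37.0% on X, 31.9% to 32.3% on 2R and 28.2% to 28.6% on 2L. They were 15.6% to 15.9% on 3L and 15.3% to 15.6% on 3R. The intervals treat sites as independent draws and leave out the linkage between them. The median frequency difference at called sites was 0.747 on X and between 0.6004 and 0.609 on the other arms. Over all tested sites the mean absolute difference between the pools was 0.235, and the SD of its mean over 1322 windows of 100 kb with at least 50 sites was 0.137. It exceeded the mean distance of the control pool from P0, which was 0.115 over the 1080170 tested sites that were also listed for control flies, against 0.234 between the selected pools at the same sites. The distance from P0 itself was 0.225 in assimilated and 0.261 in nonassimilated flies at these sites.

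**Figure D1:**
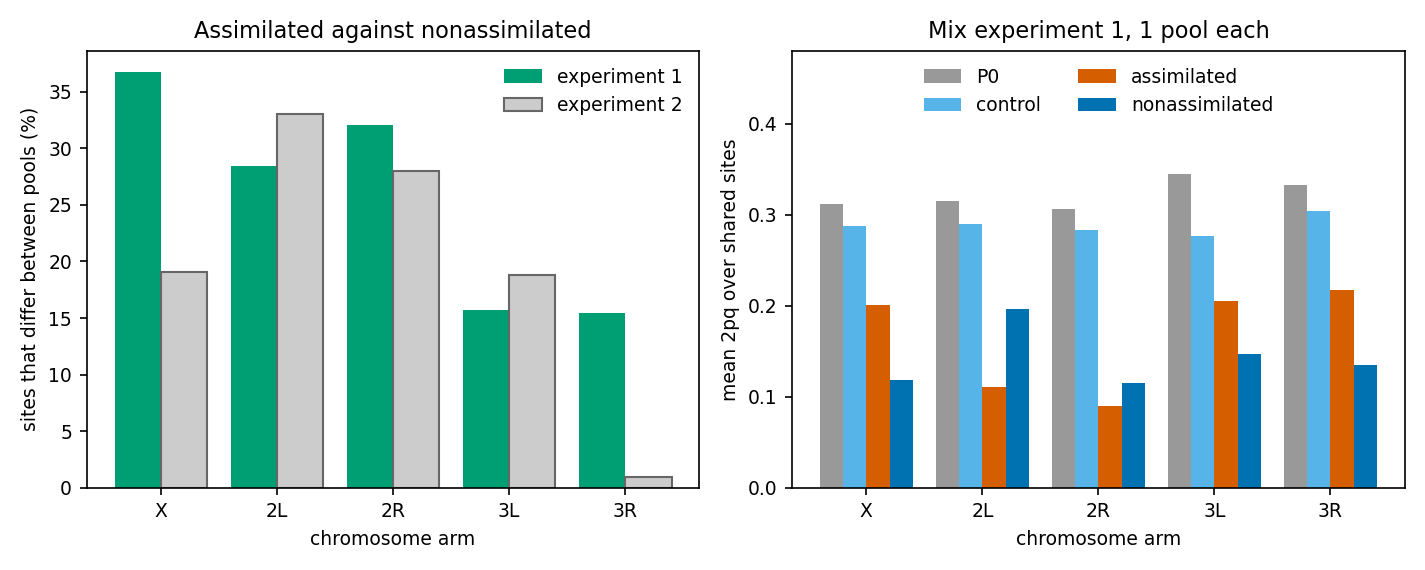
Left, share of tested sites (%) called different between assimilated and nonassimilated flies on each chromosome arm in experiments 1 and 2; right, mean expected heterozygosity (2pq) over the shared sites of experiment 1 in each pool. In experiment 1 the called share runs from 36.8% on X to 15.5% on 3R, and in experiment 2 only 0.987% of 3R sites are called; both selected pools lie below P0 and control on every arm.

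FST, the share of allelic variance that lies between the pools (Hudson's estimator), was 0.450 over all tested sites. It was 0.621 on 2R and 0.595 on X, 0.448 on 2L, 0.330 on 3R and 0.319 on 3L. On 2R, where FST was highest, 52.3% of sites were fixed for the same allele in both pools (at most 2% or at least 98%), against 25.0% on X. Expected heterozygosity, the mean of 2pq over sites, was 0.322 in P0 and 0.288 in control, against 0.167 in assimilated and 0.145 in nonassimilated flies.

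Both pools were below P0 on every arm, and which of them was lower differed by arm. On 2L the mean 2pq was 0.110 in assimilated and 0.196 in nonassimilated flies, and 2pq was lower in assimilated flies in 173 of 234 windows. On 2R it was 0.0900 and 0.115, with the assimilated pool lower in 166 of 252 windows. On X, 3L and 3R the order was reversed, with 0.2004 against 0.118 on X, 0.205 against 0.147 on 3L and 0.217 against 0.135 on 3R. In 125 windows of 2L only the assimilated pool had a mean 2pq below 0.05, against 26 windows where only the nonassimilated pool did. On 3L the counts were 2 and 87 windows, on 3R 2 and 71, and on X 34 and 90. Windows in which both pools were that depleted were found almost only on 2R, with 68 windows there against 2 on the other 4 arms together.

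Which pool had moved was read from P0. A pool was counted as moved at a called site when its frequency differed from P0 by at least 0.2. Of all called sites, 36.6% had moved in nonassimilated flies alone, 20.1% in assimilated flies alone and 39.8% in both pools in opposite directions. At 3.19% both had moved the same way by different amounts. On 2L, assimilated flies alone had moved at 38.3% of called sites and nonassimilated flies alone at 28.3%. On X these shares were 12.6% and 42.3%, and on 3L 7.82% and 49.4%. On 3R and 2R movement in opposite directions was the most frequent case, with 48.2% and 42.8% of called sites. With a distance of 0.3 in place of 0.2 the share moved in opposite directions over all arms fell to 13.4%, and movement in nonassimilated flies alone became the most frequent case on 3R (46.5% against 18.5%) and 2R (48.9% against 18.9%).

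**Figure D2:**
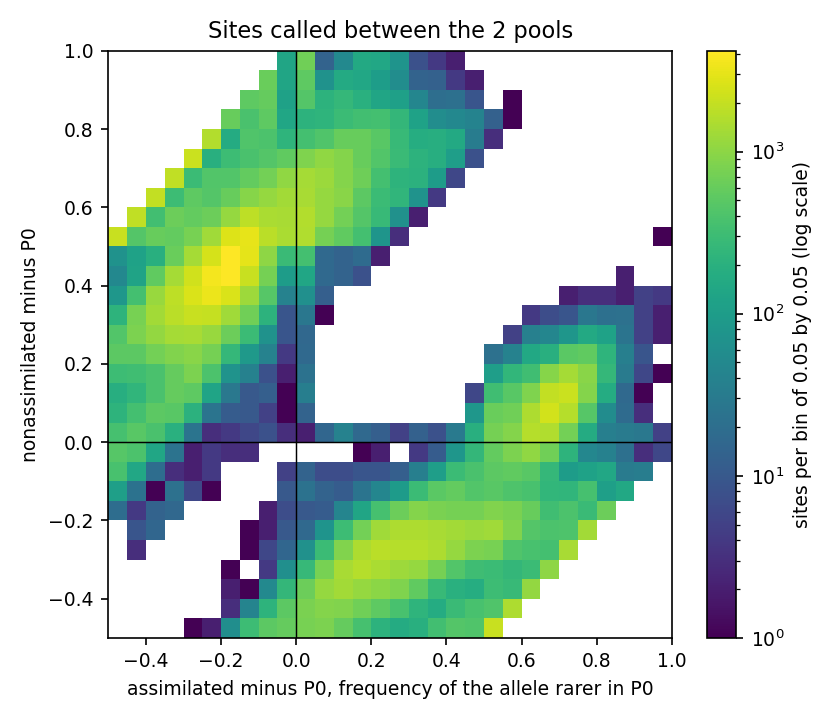
Each called site placed by the change of the allele rarer in P0, in assimilated flies (horizontal axis, frequency minus P0) and in nonassimilated flies (vertical axis); the colour gives the number of sites per bin on a log scale. The dense areas lie along the vertical axis (36.6% of called sites moved in nonassimilated flies alone), along the horizontal axis (20.1% in assimilated flies alone) and in the quadrants of opposite change (39.8%).

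The allele rarer in P0 was higher in nonassimilated flies at 153772 called sites and higher in assimilated flies at 111335. In number of sites the excess was largest on 2R, with 38954 against 23844 sites. Most tested sites had a minor allele frequency of at least 0.1 in P0, among them 396848 of 499608 intronic and 256609 of 327569 intergenic sites. Called sites were mostly such common variants as well, with 95.6% of them at or above 0.1. X was the exception, where 3101 called sites (5.48%) were fixed in P0, against 0.140% to 0.581% of called sites on the other arms. At 2998 of these X sites the allele not fixed in P0 was the one enriched in nonassimilated flies. It averaged 84.0% in nonassimilated, 3.83% in assimilated and 0.0276% in P0 flies, and at 2947 of the sites P0 had 0 reads of it at a median depth of 74. The control pool, listed at 1534 of these sites, had 20.5%. Of the windows of X, 102 held 10 or more such sites, between 0.7 Mb and 23.3 Mb. What accounts for alleles that P0 reads did not show was not tested.

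Sites fixed for opposite alleles in the selected pools numbered 23488, or 2.12% of tested sites. They were concentrated on 2R (13407 sites, 6.85% of the arm), X (6936 sites, 4.51%) and 2L (2592 sites, 1.15%), with 245 on 3R and 173 on 3L. In P0 the rarer allele of these sites had a mean frequency of 32.3% (SD 12.2 over sites). On 2R nonassimilated flies had fixed the P0-rarer allele at 10729 sites and assimilated flies at 2678. On 2L the order was turned round, with 130 and 2462 sites. In the control pool, listed at 22959 of the sites, the P0-rarer allele averaged 31.6%.

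Neighbouring windows carried calls together. Windows in which at least 25% of sites were called made up 54.2% of the 1322 windows (717), and joined across single windows below that share they formed 42 blocks with a total length of 74.4 Mb. These blocks held 90.6% of the called sites of the 5 arms. On X every one of 235 windows held at least 1 called site, while 75 of 280 windows of 3L and 63 of 321 of 3R held none. The longest block ran from 7.6 to 21.7 Mb on X and held 42752 called sites of 94934 tested (45.0%). The allele that was more frequent in assimilated flies at these called sites, here called the assimilated-type allele, averaged 53.2% in P0 and 54.1% in control, against 85.4% in assimilated and 5.94% in nonassimilated flies. By this definition the allele is always higher in assimilated than in nonassimilated flies, and a call requires a large gap between them. The gap between the selected pools of experiment 1 thus follows from the choice, here and below. Only the values in P0, in control and in experiment 2 lie outside it.

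The second block covered 9.8 Mb of 2L, from 12.3 to 22.1 Mb. Its mean 2pq was 0.307 in P0 and 0.302 in control, against 0.0417 in assimilated and 0.238 in nonassimilated flies. Both selected pools were thus below P0 and control, but only the assimilated pool fell below 0.05. The assimilated-type allele averaged 53.7% in P0, 98.1% in assimilated and 37.0% in nonassimilated flies at 38478 called sites. On 2L a shorter block from 3.3 to 6.6 Mb had the highest called share among the blocks of at least 1 Mb, 54.4%, and 2458 of the 2592 oppositely fixed sites of the arm.

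Blocks with a mean 2pq below 0.05 in nonassimilated flies only lay on 2R, 3R, X and 3L. From 15.8 to 19.0 Mb on 2R, 98.5% of sites were fixed in nonassimilated and 53.0% in assimilated flies, with a mean 2pq of 0.00307 and 0.217. From 17.2 to 18.9 Mb on 3R the fixed shares were 98.6% and 29.9%, and from 5.3 to 7.0 Mb on X 95.4% and 32.5%. In the 3L block from 10.9 to 13.9 Mb they were 80.1% and 31.3%. Nonassimilated flies alone had moved from P0 at 80.1% of the called sites of the 3R block, 86.0% of the X block and 81.8% of the 3L block. In the 2R block the share was 58.8%, and at 28.2% the pools had moved in opposite directions.

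A different state was seen at the end of 2R, from 21.5 to 25.3 Mb. There both pools were nearly without variation (98.4% of sites fixed in each, mean 2pq 0.00405 in assimilated and 0.00399 in nonassimilated flies), while P0 had 0.282 and control 0.286. FST was 0.990. Of the 32118 tested sites of this block 12866 were called, and 12594 were fixed for opposite alleles. Both pools had moved at least 0.2 from P0 in opposite directions at 95.5% of its called sites. The annotation places 629 protein-coding genes in these 3.8 Mb, among them the study's candidates CG4250 and Cyp9c1 and the Hippo pathway effector yki.

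On X, 2L, 3L and 3R the 3 windows of 100 kb with the largest called share, at least 1 Mb apart, were examined with the genes that hold most of their called sites. Windows of 2R entered the counts only. On 2L the first window, 4.5 to 4.6 Mb, had 708 of 929 sites called (76.2%) and lies wholly within dpy (FBgn0053196, chr2L:4477462-4614300, minus strand), the gene of the giant extracellular protein dumpy that anchors the wing epithelium to the cuticle. Of these called sites 309 were in coding sequence. The assimilated-type allele of the dpy window averaged 52.9% in P0 and 49.97% in control, against 99.8% in assimilated and 35.7% in nonassimilated flies. Mean 2pq was 0.0107 in assimilated and 0.306 in nonassimilated flies. The second 2L window, 5.7 to 5.8 Mb, had 67.7% of sites called, led by CG11030 (227 of 326 sites) and CG9171 (217 of 322). Mean 2pq was 0.00835 in assimilated and 0.292 in nonassimilated flies. The third, 21.5 to 21.6 Mb near nompB, which serves ciliated sensory neurons, and Lamp1, a lysosomal membrane protein gene, had only 115 tested sites, of which 64.3% were called.

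On X the leading window, 18.0 to 18.1 Mb, had 499 of 764 sites called (65.3%). Sh, the Shaker potassium channel gene (FBgn0003380, chrX:17924307-18063247, minus strand), held 376 of them and the dynein heavy chain gene Dhc16F 72. Here the nonassimilated pool was the depleted one, with a mean 2pq of 0.0109 against 0.275 in assimilated and 0.322 in P0 flies, and 115 sites were fixed for opposite alleles. The windows at 22.5 to 22.6 Mb (65.1% called, led by CG17600) and 20.4 to 20.5 Mb (61.2%, led by RhoGAP19D) had a lower mean 2pq in assimilated than in nonassimilated flies (0.0568 against 0.130, and 0.0945 against 0.120). In the Sh window the mean distance from P0 was 0.323 in assimilated and 0.327 in nonassimilated flies. In the other windows it was unequal. Assimilated flies differed from P0 by a mean of 0.128 and 0.196 there, and nonassimilated flies by 0.568 and 0.536. Control flies differed by 0.0686 and 0.0700.

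On 3L the leading window, 22.3 to 22.4 Mb, lay within Ten-m (FBgn0004449, chr3L:22293044-22407863, minus strand), which encodes a teneurin of the neuronal and epithelial cell surface. It had 282 of 400 sites called (70.5%), all within the gene but only 5 in coding sequence. Its assimilated-type allele averaged 42.5% in P0, 76.0% in assimilated and 9.85% in nonassimilated flies. The window at 21.2 to 21.3 Mb (64.9%) was led by Eip78C, an ecdysone-induced nuclear receptor gene, with 87 of 127 sites, and AcCoAS, the acetyl-CoA synthetase gene, with 30 of 38. The third window, 13.1 to 13.2 Mb, had 852 of 1359 sites called (62.7%) and contains trn, a leucine-rich repeat cell surface protein gene of the wing disc, with 25 of 34 sites, and snky, a sperm protein gene, with 24 of 33. In it 95.5% of sites were fixed in nonassimilated and 36.1% in assimilated flies.

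The highest share of all 12 windows was on 3R, from 4.2 to 4.3 Mb, with 85 of 105 sites called (81.0%). The site count is low there. It was led by aux, the auxilin gene of clathrin uncoating (20 of 21 sites), and cpx, the complexin gene of synaptic release (16 of 26). The assimilated-type allele averaged 64.9% in P0, 98.2% in assimilated and 28.2% in nonassimilated flies. The window from 10.7 to 10.8 Mb (59.1%) was led by the tachykinin-like receptor gene TkR86C with 73 of 106 sites, and that from 5.2 to 5.3 Mb (57.1%) by mtd with 70 of 118 and by cno, the gene of the junction protein canoe, with 51 of 81. Across the 12 windows, mean 2pq was lower in assimilated flies in 7, all 3 of 2L among them, and lower in nonassimilated flies in 5.

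**Figure D3:**
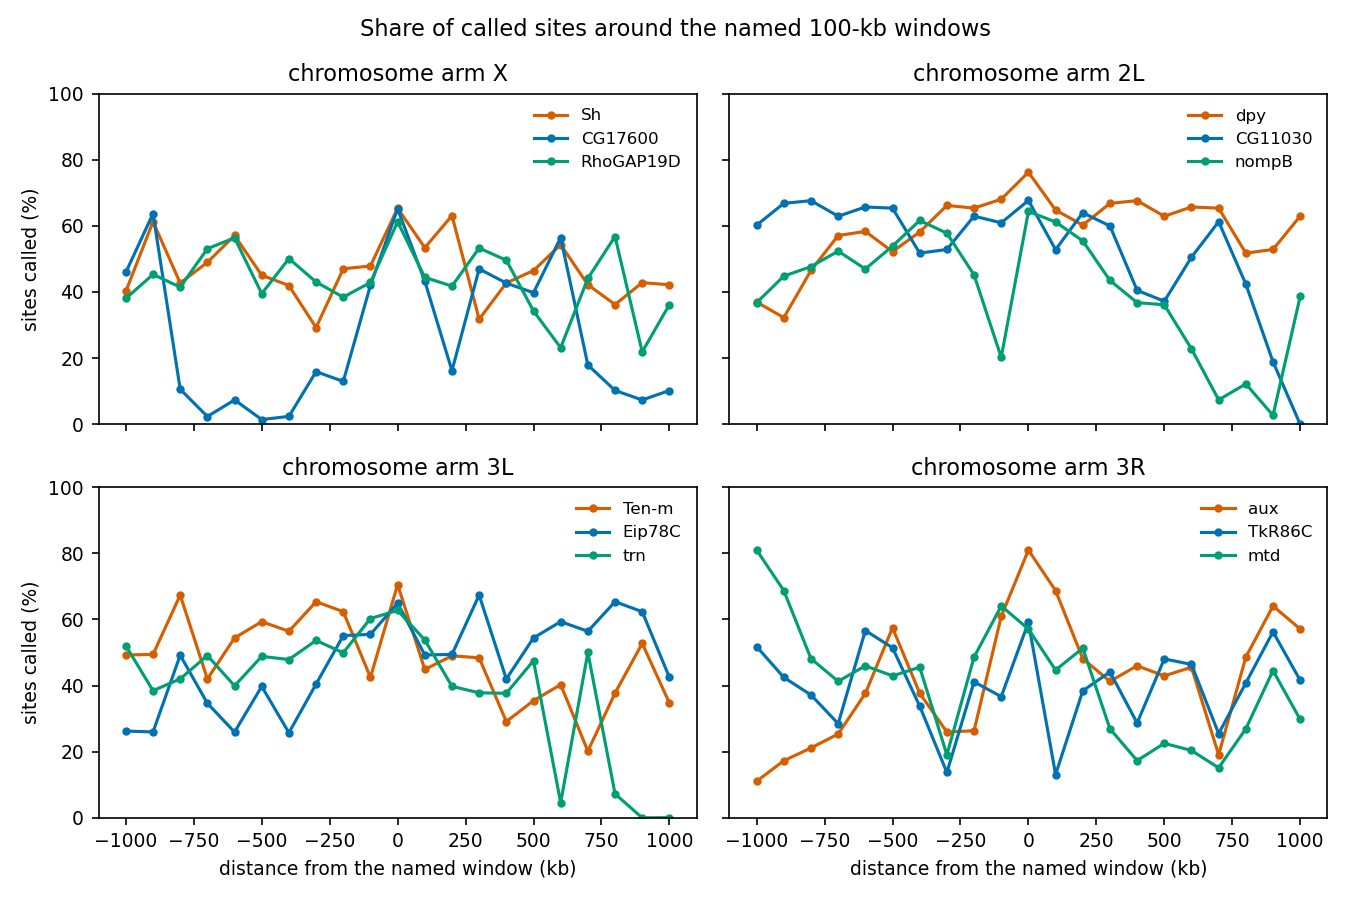
Share of tested sites called different (%, vertical axis) in the 100-kb windows up to 1000 kb on either side of each named window (horizontal axis, distance in kb), 1 line per window labelled by its leading gene. The centres lie between 57.1% (mtd) and 81.0% (aux), and 182 of the 210 distinct neighbouring windows are above 20%; around CG17600 the share is below that at 200 kb on either side.

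The same comparison in Mix experiment 2, from other pools with their own P0, shared no sample with experiment 1. In it 18.8% of 979559 shared sites were called, but on 3R only 0.987%, against 33.1% on 2L, 28.0% on 2R, 19.1% on X and 18.8% on 3L. The selected pools of experiment 2 thus hardly differed on 3R, where those of experiment 1 had 40036 called sites. At 35181 sites of 3R called in experiment 1 and listed for both pools of experiment 2, the assimilated-type allele of experiment 1 averaged 60.3% in assimilated against 56.2% in nonassimilated flies of experiment 2. At 68.2% of them both experiment 2 pools were fixed for the same allele.

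Of 749216 sites on the 5 arms listed in all 4 tables, 56004 were called in both experiments, which is 32.2% of the calls of experiment 1 and 38.4% of those of experiment 2 at these sites. The difference had the same direction at 16702 (29.8%) and the opposite direction at 39302. On 2L the same direction was found at 9.01% of 19679 sites, on X at 29.4% of 9801, on 2R at 34.3% of 19396 and on 3L at 74.8% of 6873. On 3R it was 96.9%, of only 255 sites. At sites with a P0 frequency of 0.4 to 0.6 in experiment 1 the shares were 2.51% on 2L, 34.5% on X, 47.6% on 2R and 78.4% on 3L. No p-value is given, because the sites are linked and each experiment contributes 1 pair of pools.

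The direction was nearly uniform in some blocks and mixed in others. In the 2L block from 12.3 to 22.1 Mb, 13808 of 13810 sites called in both experiments had opposite directions. There the assimilated-type allele of experiment 1, at 98.1% in assimilated and 37.0% in nonassimilated flies, averaged 1.07% in assimilated against 67.8% in nonassimilated flies of experiment 2. In both experiments the assimilated pool was near fixation, for different alleles. In experiment 2 both pools were fixed for the same allele at 31.4% of the 20299 sites listed there. The nonassimilated mean of 67.8% averages over such sites and sites where the pools differed, and is no measure of retained variation. On 2R all 4207 sites called in both experiments from 6.5 to 10.2 Mb and 2823 of 2824 from 3.9 to 6.3 Mb had opposite directions as well. The end of 2R, 21.5 to 25.3 Mb, had 5056 sites with the same and 1606 with the opposite direction. In the 3L block from 10.9 to 13.9 Mb, 3236 sites had the same and 608 the opposite direction. The large X block had 2853 and 5618, and the 2L block from 3.3 to 6.6 Mb 1749 and 2577. Of oppositely fixed sites in experiment 1, 1642 were also fixed for opposite alleles in experiment 2, with the same orientation at 26 and the reverse at 1616.

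**Figure D4:**
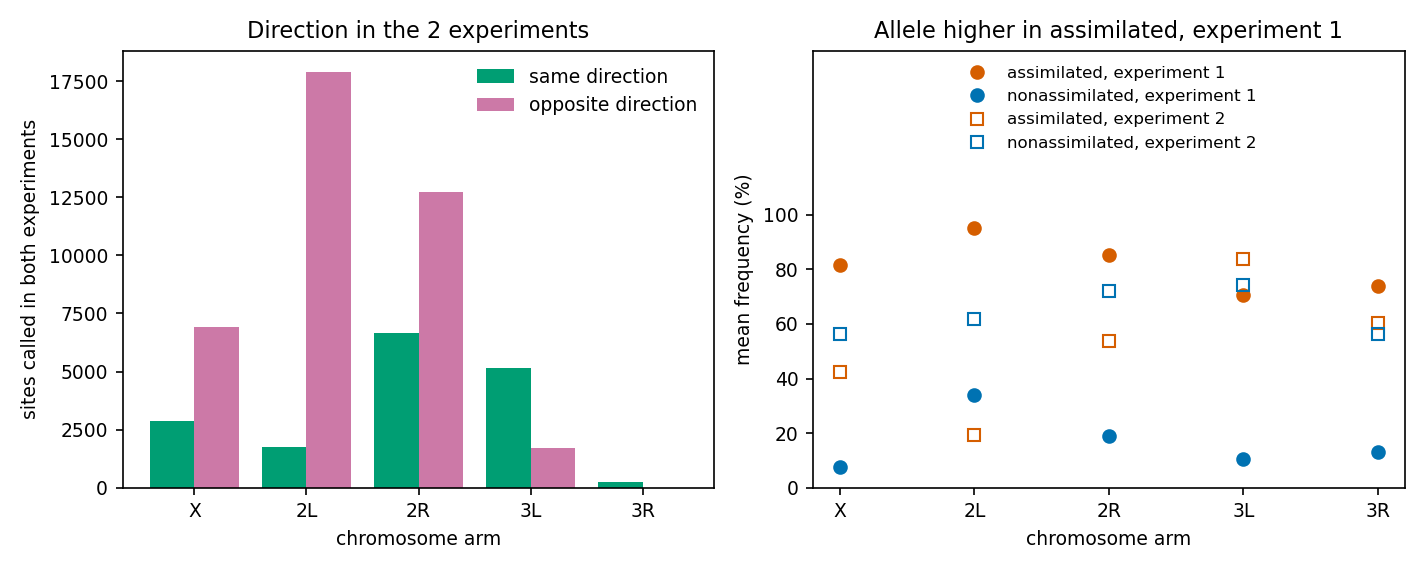
Left, number of sites called in both experiments with the same or the opposite direction on each chromosome arm. Right, mean frequency (%) of the allele that was higher in assimilated flies of experiment 1, over its called sites on each arm, in the selected pools of both experiments; on 2L it is at 95.2% and 33.8% in assimilated and nonassimilated flies of experiment 1 and at 19.3% and 61.9% in those of experiment 2.

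Over 1319 windows with enough sites in both experiments, the called shares of the experiments had a Pearson r of 0.286 and a Spearman rank coefficient of 0.220, given as a description because neighbouring windows are not independent. At least 25% of sites were called in both experiments in 345 windows, in experiment 1 only in 372 and in experiment 2 only in 155. All 114 such windows of 3R belonged to experiment 1 only. In the windows of Sh, CG17600, RhoGAP19D, Ten-m, Eip78C, aux, TkR86C and mtd no site was called in experiment 2. In that of CG11030 1 of 1102 sites was. In those of dpy (54.7%), nompB (49.1%) and trn (39.3%) many were. In the window of dpy 384 of 702 sites were called in experiment 2. In the windows without a call, both pools of experiment 2 were fixed for the same allele at most sites. The share was 66.2% in that of CG17600 and between 93.1% (RhoGAP19D) and 99.1% (TkR86C) in the others.

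Alleles fixed in D907, 1 of the founder lines, were followed through the pools. They were taken as sites with a frequency of at least 98% in D907 P0 (at least 20 reads) and of 5% to 40% in Mix P0, of which 51375 were tested. They averaged 32.9% in Mix P0 and 27.3% in control, against 48.9% in assimilated and 62.8% in nonassimilated flies. Of these sites 30722 lay on 3L, so the averages are dominated by that arm. By arm the difference of assimilated minus nonassimilated flies was -19.6 percentage points on 3R and -17.2 on 3L, and between -1.24 and 4.38 on X, 2L and 2R. The SD over single windows was 23.4 on 3R and 24.1 on 3L, and 48.2 on 2R. On 2R nonassimilated flies were higher by over 50 percentage points in 28 windows and assimilated flies in 11, so the mean of the arm hides differences of both signs. On X both pools had lost D907-type alleles, with 10.04% in assimilated and 5.66% in nonassimilated flies against 35.04% in P0 and 41.9% in control. These alleles were shared with other founders at an unknown number of sites.

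Runs of D907-type alleles were joined from windows of 100 kb in which they averaged at least 90% in 1 selected pool. The high value of that pool, and part of its gap to the other pool, follow from this choice. That pool was the assimilated one in the 2L run below and the nonassimilated one in the other runs given. D907-type alleles came in long runs, the longest from 14.4 to 21.4 Mb of 2R, with 72.7% in assimilated and 99.97% in nonassimilated flies against 36.5% in P0. In nonassimilated flies they averaged at least 90% in 231 windows of 100 kb and in assimilated flies in 84 windows, 43 of them in common. From 11.4 to 13.9 Mb of 3L they stood at 31.4% in P0 and 23.7% in control, against 34.7% in assimilated and 99.0% in nonassimilated flies over 5162 sites, 98.02% of which were called. This run holds the trn window. From 0.3 to 7.1 Mb of 3L both pools were high, at 84.1% in assimilated and 96.3% in nonassimilated flies against 33.8% in P0 and 15.4% in control, and only 7.48% of the 8599 sites were called. From 14.8 to 19.0 Mb of 3R the values were 61.5% in assimilated and 99.9% in nonassimilated flies, against 31.0% in P0. At the start of 2L, from 0.9 to 2.0 Mb, assimilated flies had 99.9% and nonassimilated flies 81.6%, and 0 of 285 sites were called.

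The 13 candidate genes of the study were taken with 2 kb on each side. The study named them from the Mix populations, except Hsp83, which it named from the D907 selection lines. The values of those named from Mix are therefore no independent evidence of a difference. SK, Ect3 and CG31262 came from changed peaks of the histone mark H3K27ac beside changed expression. Knockdown of SK or Ect3 gave no wing phenotype in the study, which considers a role of these genes in EV evolution unlikely. In 11 of the 13 at least 1 site was called, beside 71.6% of the 13400 protein-coding genes with at least 10 tested sites. In 5 at least 25% of sites were called, beside 49.0% of all genes. The median called share was 18.9% in the candidates and 23.5% in all genes. The share of genes with a called site was thus above that of all genes, and the median share and the share of genes at 25% were below it.

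CG31262 (FBgn0051262, chr3R:17217116-17223074, minus strand) had the highest share, 63 of 112 sites (56.2%), 13 of them coding. Nonassimilated flies were fixed at all 112 sites and assimilated flies at 32. Mean 2pq was 0.333 in P0 and 0.294 in control, against 0.305 in assimilated and 0.000235 in nonassimilated flies, so the change lay in the nonassimilated pool. In experiment 2 no site of the gene was called, and at the called sites of experiment 1 the assimilated-type allele was low in both pools there, at 13.3% and 0%.

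Cyp9c1, a cytochrome P450 gene (FBgn0015040, chr2R:24631063-24632923, plus strand), had 23 of 41 sites called (56.1%), and all 23 were fixed for opposite alleles. Only 6 of them lay in the gene body. The assimilated-type allele averaged 58.2% in P0 and 51.2% in control. In experiment 2 it was at 78.0% in assimilated and 0.736% in nonassimilated flies, the same direction as in experiment 1. CG4250 (FBgn0034761, chr2R:22663692-22664474, plus strand) had 16 of 52 sites called (30.8%), again all fixed for opposite alleles. Only 2 of these lay in the gene body. At CG4250 the assimilated-type allele was at 63.8% in P0. In experiment 2 it was at 46.5% in assimilated against 98.2% in nonassimilated flies, the reverse direction.

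Vajk1 (FBgn0028938, chr2L:13920707-13923553, minus strand) had 20 of 51 sites called (39.2%). Assimilated flies were fixed at all 51 sites and nonassimilated flies at 31. The assimilated-type allele averaged 74.9% in P0 and 72.9% in control, against 99.9% in assimilated and 38.5% in nonassimilated flies. For experiment 2 the values were 0.138% in assimilated and 97.9% in nonassimilated flies, with 33 of 42 sites called. The gene lies in the 2L block whose direction was opposite between the experiments.

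Ect3, a beta-galactosidase family gene (FBgn0260746, chr3R:11999278-12003516, plus strand), had 37 of 85 sites called (43.5%), with a mean 2pq of 0.241 in both selected pools and 0.355 in P0. At its most divergent site, in coding sequence at position 12001984, the alternative allele was at 65.5% in P0 and 63.4% in control, against 9.09% in assimilated and 100% in nonassimilated flies (adjusted Fisher p = 6.83e-44). Assimilated flies were fixed at 34.1% and nonassimilated flies at 47.1% of the sites of the gene. kibra, an upstream activator of Hippo signalling (FBgn0262127, chr3R:14697689-14724261, minus strand), had 82 of 363 sites called (22.6%), 22 of them coding. The assimilated-type allele averaged 51.1% in P0, 79.3% in assimilated and 35.4% in nonassimilated flies. Mean 2pq was lower in assimilated (0.258) than in nonassimilated flies (0.341), which stayed close to P0 (0.360) and control (0.351).

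SK, a calcium-activated potassium channel gene (FBgn0029761, chrX:5340236-5405138, plus strand), had 82 of 433 sites called (18.9%). The assimilated-type allele averaged 49.4% in P0, 46.0% in assimilated and 0.0535% in nonassimilated flies. Cad96Ca, a cadherin-related receptor tyrosine kinase gene (FBgn0022800, chr3R:25197571-25208283, minus strand), had 7 of 116 sites called (6.03%). Nonassimilated flies were fixed at all 116 sites, while assimilated flies had a mean 2pq of 0.258 against 0.377 in P0. Pxd, a peroxidase gene (FBgn0004577, chr3R:17014576-17027987, plus strand), had 5 of 136 sites called (3.68%), and its neighbour CG8907 had 0 of 38. Nonassimilated flies were fixed at 131 and 37 sites of these genes, and assimilated flies at 28 and 9. At these 4 genes assimilated flies thus kept variation that nonassimilated flies lacked, and most sites fell short of the threshold.

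tx (taxi), the gene of a bHLH transcription factor (FBgn0288888, chr3R:26440778-26448991, plus strand), had 0 of 133 sites called, although nonassimilated flies were fixed at all 133 and assimilated flies at 39. Its mean absolute difference between pools was 0.0761, against a mean distance from P0 of 0.249 in assimilated and 0.325 in nonassimilated flies. Hsp83, the gene of Hsp90 (FBgn0001233, chr3L:3192969-3197059, plus strand), had 1 of 36 sites called, with a mean difference of 0.0445 and a mean distance from P0 of 0.305 and 0.301. At tx and Hsp83 the pools were therefore closer to each other than to P0. The same held at Cad96Ca, Pxd, CG8907, CG5144, Vajk1 and SK, so it does not set tx and Hsp83 apart. It did not hold at CG4250, Cyp9c1, kibra, Ect3 and CG31262. The called Hsp83 site, an intronic position at 3193603, had 82.8% in assimilated flies (93 reads), 0% in nonassimilated flies (53 reads) and 0% in P0 (76 reads), and was not listed for control flies. CG5144 (Argk2 in the annotation), an arginine kinase family gene on 3L (FBgn0035957, chr3L:9047439-9048724, plus strand), had 2 of 33 sites called. At the more divergent of them, an intergenic position at 9045670, the alternative allele was at 19.4% in P0 and 39.6% in control, against 62.3% in assimilated and 13.4% in nonassimilated flies. The selected pools of experiment 2 had 100% and 52% there, the same direction. In experiment 2 no site was called at Cad96Ca, Pxd, CG8907, tx, kibra, Ect3, CG31262 and Hsp83. At SK 4 of 507 sites were called, at CG5144 19 of 30, at CG4250 28 of 59 and at Cyp9c1 27 of 47.

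**Figure D5:**
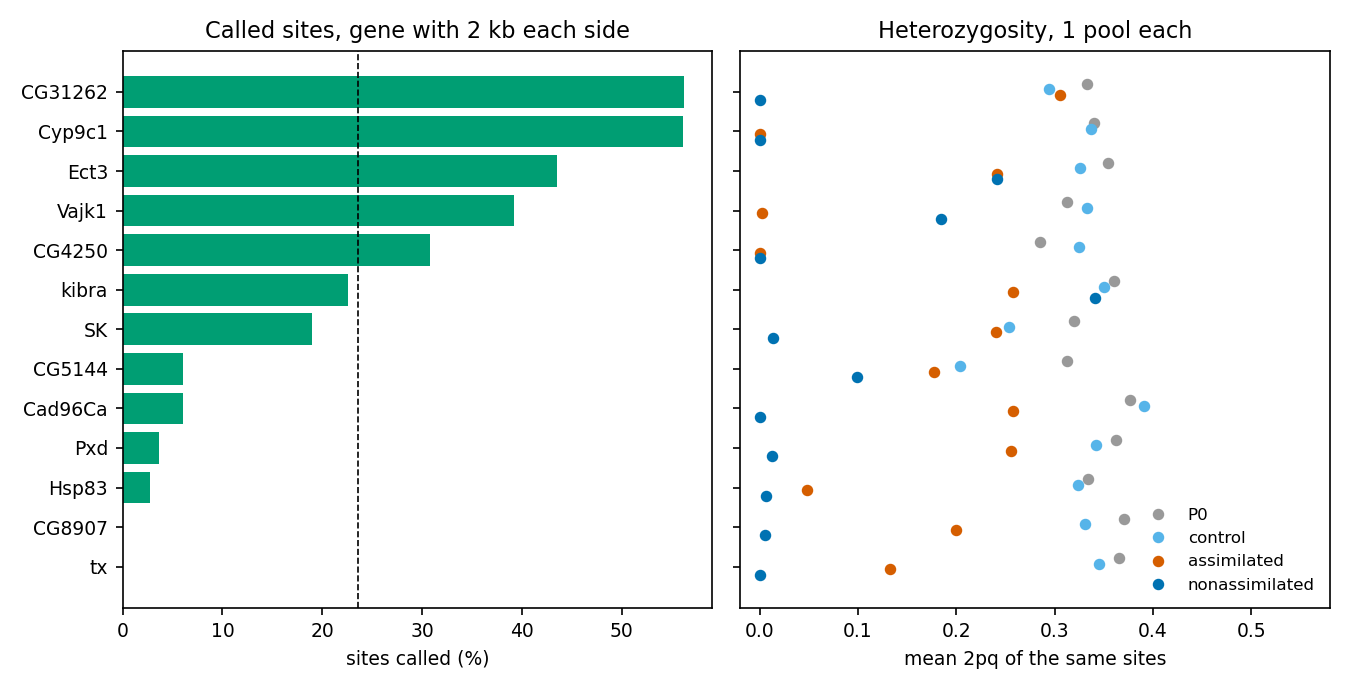
Left, share of tested sites called different (%) in each candidate gene with 2 kb on each side; the dashed line is the median of all protein-coding genes (23.5%). Right, mean 2pq of the same sites in each pool of experiment 1. Nonassimilated flies are below 0.02 in 9 genes and assimilated flies in 3 (Vajk1, Cyp9c1 and CG4250), while the lowest values are 0.285 in P0 and 0.204 in control.

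Genes of the vein and wing pathways varied as groups around genes at large, of which 71.6% held a called site, with a median share of 23.5%. They were likewise taken with 2 kb on each side, so the called sites of a gene can lie outside its body. At least 1 site was called in 9 of 16 EGFR, 11 of 12 Notch, 10 of 15 BMP, 16 of 22 Hedgehog and vein positioning, 8 of 14 Hippo and 12 of 21 heat shock genes. The median called shares were 3.72%, 22.2%, 12.96%, 28.7%, 11.4% and 5% in the same order. The share of genes with a called site was above that of all genes for Notch (91.7%) and Hedgehog and vein positioning (72.7%) and below it for the other lists. The median share was above that of all genes for Hedgehog and vein positioning alone. Members of the signalling lists are longer than the median gene, and a longer gene has more sites that could be called. Within the lists the shares of single genes ran from 0% up to between 41.2% (heat shock) and 73.5% (BMP).

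In the BMP list the leading genes were the type I receptor genes sax (25 of 34 sites, 73.5%) and tkv (249 of 343, 72.6%). They were followed by shn, the zinc finger cofactor of Dpp targets (282 of 615, 45.9%). Of the called sites only 7 lay in the gene body at sax, against 232 at tkv and 263 at shn. tkv lies in the 2L block from 3.3 to 6.6 Mb, and 67 of its sites were fixed for opposite alleles. At a tkv coding site, position 5221224, the alternative allele was at 18.6% in P0 and 23.3% in control, against 100% in assimilated and 0% in nonassimilated flies. At sax the assimilated-type allele was at 74.2% in P0, 99.1% in assimilated and 37.6% in nonassimilated flies, and at 0.0877% and 100% in those of experiment 2. The ligand gene dpp had no called site.

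In the Notch list Su(H), the transcription factor of the pathway, had 68 of 95 sites called (71.6%), kuz, the protease that cleaves Notch, 481 of 910 (52.9%) and fng, a glycosyltransferase acting on Notch, 67 of 136 (49.3%). At kuz mean 2pq was 0.0210 in assimilated and 0.263 in nonassimilated flies, while at fng the pools had 0.209 and 0.204. In the EGFR list Sos, the Ras exchange factor (55 of 96, 57.3%), rl, the ERK kinase (76 of 144, 52.8%), and spi, a ligand (13 of 29, 44.8%), led. At Sos the assimilated-type allele was at 73.2% in P0, 99.7% in assimilated and 38.9% in nonassimilated flies, and in experiment 2 at 0.0521% and 83.1%.

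In the Hedgehog and vein positioning list the posterior selector en had 30 of 49 sites called (61.2%), ci, the transcription factor of the pathway, 17 of 29 (58.6%) and caup, an Iroquois gene of lateral vein fate, 154 of 269 (57.2%). caup lies in the 3L run of D907-type alleles. Its mean 2pq was 0.331 in assimilated, 0.00611 in nonassimilated and 0.341 in P0 flies. In the Hippo list the atypical cadherin gene ft had 280 of 408 sites called (68.6%), 185 of them coding. The TEAD factor gene sd had 37 of 75 (49.3%). The coactivator gene yki had 24 of 57 (42.1%), all 24 fixed for opposite alleles, but only 4 of these lay in the gene body. In the heat shock list Hsc70-3 had 33 of 80 sites called (41.2%), with 23 fixed for opposite alleles, and the cochaperone gene Droj2 had 11 of 33. Hsp70Bc had 5 of 15, with 0 of them in the gene body. The gene is 1 of several nearly identical copies between which short reads can be misplaced. In experiment 2 no site was called at shn, fng, en, ci, Hsc70-3, Droj2 and Hsp70Bc. The other leading genes of the lists had called sites there, from 4.27% of sites at tkv to 87.9% at Su(H).

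By annotation, 26.5% of 144993 coding sites were called, 24.5% of 78140 UTR sites, 23.7% of 499608 intronic sites and 23.5% of 327569 intergenic sites. Sites in exons of noncoding transcripts had 27.4% of 38818. The coding share had a Wilson interval of 26.2% to 26.7% and the intergenic share one of 23.3% to 23.6%. With sites of a P0 minor allele frequency of at least 0.1 only, 31.9% of coding and 28.8% of intergenic sites were called. Mean absolute differences were 0.229 in coding and 0.234 in intergenic sites, in the reverse order. Of oppositely fixed sites 20.2% were coding and 45.02% intronic, beside 13.1% and 45.05% of all tested sites.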

How the data were processed

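Genomic DNA of pooled adult females was sequenced by the authors (Pool-seq). The submitters' processing notes name BWA, GATK and the dm6 build; versions and site filters are not given in the sources used here. Each deposited table sets 1 derived pool beside its P0 pool and gives, per site, the read counts of the reference and alternative allele as a bracketed pair, a unit of its own kind (other), not normalized for depth. The authors' columns of Fisher p-values, ranks and q-values were not used. Of 9 tables, 6 were used: the selected pools of both Mix experiments, the Mix control of experiment 1 and the D907 control (for D907 P0). P0 reads were equal in both tables of the comparison at all shared sites.

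Sites were joined on chromosome and position, and 21 without reads in a pool were left out. Fisher's exact tests were recomputed, with Bonferroni's correction (adjusted p below 1e-05). FST is Hudson's estimator as a ratio of sums. Windows of 100 kb needed 50 sites, genes (Ensembl annotation on the same coordinates, gene body with 2 kb on each side) 10 sites. Named were the 13 candidates of the study, the 3 genes of each other list with the largest called share, and, on X, 2L, 3L and 3R, the 3 windows with the largest called share with their 2 leading genes. 4 listed genes were found under newer symbols (CG5144 as Argk2, Dl as Delta, Hop as Stip1, d as dachs). The gene lists, windows and comparisons were chosen with earlier results of these data known. Alternatives were other thresholds, a minimum of 30 reads, counts scaled to 200 chromosomes per pool, P0 frequency limits, 50-kb windows, other bounds of fixation and movement, and a stratified (Cochran-Mantel-Haenszel) test whose replicate block was the experiment. The scripts were tested on simulated data. Intervals are Wilson intervals at 95% on called over tested sites, and cover neither the error of the reads nor linkage. Scripts ran in Python 3.11.15 with SciPy 1.17.1, Numba 0.67.0, NumPy 2.4.6, Matplotlib 3.10.9 and pandas 2.3.3.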

Additional observations from a re-analysis of the deposited data

Results flagged for a closer look

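The direction of the difference between assimilated and nonassimilated flies was mostly opposite between the 2 experiments on 3 arms. At sites called in both experiments, 6920 on X, 17906 on 2L and 12734 on 2R had opposite directions, against 2881, 1773 and 6662 with the same direction. With 1 pair of pools per experiment the difference between the experiments was not tested. Of the opposite sites of 2L, 13808 lay in the linked block from 12.3 to 22.1 Mb.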

How the results depend on the processing

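The number of called sites stayed within 1.5 times of 265107 with adjusted p below 1e-08 (216170), Bonferroni-adjusted p below 0.05 (336488), at least 30 reads in both pools (264316) and counts scaled to 200 chromosomes (193284). It rose to 560355 with the Benjamini-Hochberg correction at 0.05, which is a looser limit. The called share on 3L fell to 10.1% and on 3R to 10.2% with scaled counts. Windows counted at a called share of at least 50% were 15.2% of all, which follows from the stricter limit. With a distance of 0.3 the sites moved in opposite directions were 13.4% of called sites. The share of sites with the same direction in experiment 2 was 31.8% with adjusted p below 0.05 in both and 44.3% at P0 frequencies of 0.4 to 0.6, the cause of which was not tested. The other 36 of 43 alternative values stayed within 1.5 times of the reported value. The shares of 31.8% and 44.3% also lie within 1.5 times of the reported 29.8%, but were counted as changed. With 1 pool per group no replicate spread exists against which to set them. The experiments share founders but not flies, and the second was started later with stronger selection from the start. The test with the experiments as replicate block called 182176 of the 759568 sites listed in all 4 tables, 114448 of them also called in experiment 1, which had 175253 calls at these sites. Fewer than 30 reads were found at 2.24% of sites in the assimilated and 1.97% in the nonassimilated pool. Leaving out a replicate was not possible with 1 pool per group.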

Other observations

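Sites listed for 1 of the 2 pools only were not tested. The assimilated list had 122120 such sites (9.92% of its sites) and the nonassimilated list 94159 (7.83%). On X they made up 15.4% of the assimilated list, against 6.14% on 2L. In the nonassimilated list the largest share was on 2L, 11.7%, and the smallest on 3L, 4.84%. The alternative allele of these sites averaged 41.0% in P0 and 46.8% in assimilated flies in the first list, and 35.4% in P0 and 56.5% in nonassimilated flies in the second. On 2R 39.6% of the sites listed for assimilated flies only and 38.6% of those listed for nonassimilated flies only were fixed for the alternative allele.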
